A study of Homo sapiens with 8 samples.

Results

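Translation initiation factors are the proteins that bring the small ribosomal subunit, the initiator methionyl-tRNA and a capped mRNA together at a start codon. Their genes were taken here as the protein-coding genes whose symbol begins with EIF, leaving out the 4 eIF2 alpha kinase genes (EIF2AK1 to EIF2AK4), with at least 10 counts in at least 2 libraries. Of 56 such EIF genes, 52 remained without the kinases, and 2 of these did not meet the count minimum. The remaining 50 genes, out of 60617 in the count table, are the members described. RNA sequencing of oligo(dT)-selected RNA covered MCF-10A, a human mammary epithelial cell line that is not tumorigenic, in 4 groups of 2 libraries each. The line was used as a pair of derivatives, named Empty and NeuT; the labels do not spell out what NeuT carries, whether either is a single clone, or whether replicates were separate cultures. Each derivative was either left untreated or given JG-98, a small-molecule inhibitor of Hsp70 chaperones, at 1 µM for 12 h. If replicates were not separate cultures, p-values measure only the spread between these libraries, which may be technical.

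In the canonical pathway, eIF2 in its GTP form carries the initiator tRNA to the small subunit together with eIF1, eIF1A, eIF3 and eIF5. The eIF4F complex, made of the cap-binding protein eIF4E, the scaffold eIF4G and the RNA helicase eIF4A, then loads that subunit on the mRNA, which is scanned for a start codon. After eIF2 hydrolyses its GTP, eIF2B recharges it, and phosphorylation of eIF2 alpha turns eIF2 into an inhibitor of eIF2B. A further control point is eIF4E, whose binding to eIF4G is blocked by the eIF4E-binding proteins when these are not phosphorylated. Phosphorylation, protein amount and translation were not measured in these libraries, which report mRNA only.

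All 50 members passed the filter on low counts and were among the 17693 genes tested with edgeR. The libraries held 55050996 to 56861971 counts, except for Empty treated replicate 1 with 37341458. Levels are given as CPM, in which counts are divided by the library's TMM-scaled total, and every gene below is described as called where its edgeR quasi-likelihood p-value, adjusted by Benjamini-Hochberg over all tested genes, was under 0.05. The summed level of the members was 11308 and 11187 CPM in Empty without the drug and 11477 and 11092 with it. In NeuT the sums were 10582 and 10488 without and 10688 and 10761 with the drug. All 4 NeuT sums lay below all 4 Empty sums, while the treated and untreated sums of either derivative were close together. The median member had a mean of 137 CPM, above 91.3% of all tested genes. With such counts the median standard error of a log2 change with JG-98 in NeuT was 0.0616 for the members, against 0.111 for all tested genes.

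Compared per length of exon sequence (RPKM, computed from the counts and TMM-scaled totals), the members differed widely among themselves. In untreated Empty, EIF5A, which helps ribosomes through difficult peptide bonds, was highest at 319.5 RPKM. It was followed by EIF4G2 (an eIF4G relative without the eIF4E-binding part) at 188, the eIF3 subunit EIF3I at 183 and EIF4EBP1, the best-studied eIF4E-binding protein, at 169.5 RPKM. By this measure EIF4EBP1 stood far above EIF4EBP2 at 18.2 RPKM and EIF4EBP3 at 2.55 RPKM. In CPM, EIF4EBP1 and EIF4EBP2 were closer, at means of 149 and 136, since their gene models have 880 and 7491 exonic bases. All ranks per length depend on the gene models in this way. The 3 subunits of eIF2 were at 39.5 (EIF2S1, alpha), 72.4 (EIF2S2, beta) and 70.0 RPKM (EIF2S3, gamma). The 5 subunits of its exchange factor eIF2B were all lower, from 7.05 RPKM for EIF2B2 to 18.3 RPKM for EIF2B1. EIF4E itself was at 3.33 RPKM, over the 14067 exonic bases of its gene model, and its paralog EIF4E2 at 13.3 RPKM. Lowest was EIF4A1 at 0.464 RPKM.

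**Figure D1:**
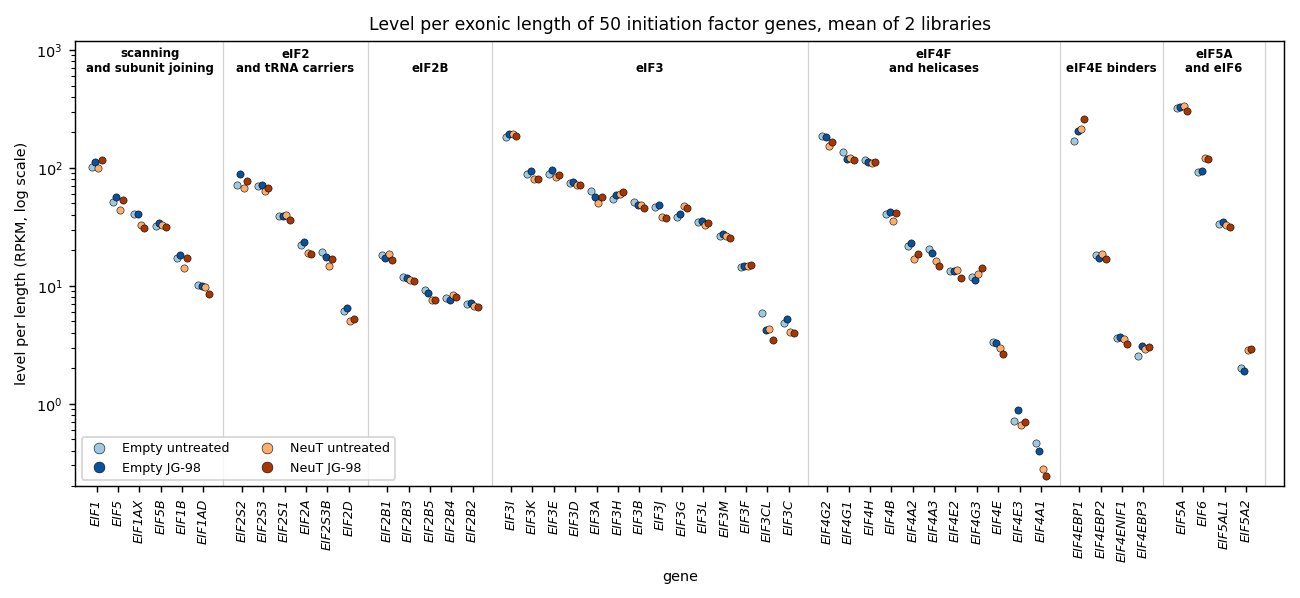
Level per exonic length (RPKM, log scale) of each of the 50 members, grouped by role, in the 4 groups. Each point is the mean of 2 libraries; within a gene the 4 points lie close together compared with the range across genes, from EIF5A at 319.5 RPKM down to EIF4A1 at 0.464 RPKM in untreated Empty.

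Some of these levels are not reliable as measures of the gene. In the annotation, 48.6% of the exonic bases of EIF4A1 are shared with SENP3-EIF4A1 and a further transcript model, so reads there may not have been assigned to either gene. EIF4A1 held 785 counts over all 8 libraries, while its 13 annotated pseudogene copies held 2772. EIF4EBP3 shares 73.2% of its exonic bases with ANKHD1-EIF4EBP3. EIF3C and EIF3CL are near-identical copies, and EIF3CL had 1319 counts in one untreated Empty library and 763 in the other. Processed copies also held many counts beside EIF4E (87.5% of the count of the gene), EIF1AX (40.3%), EIF3F (35.3%), EIF4B (13.0%) and EIF2S2 (12.3%). How reads with several matches were treated is not given in the sources used here, so changes in these genes may include reads of their copies. Copies were found by name only (the symbol of a member, then P and a number). EIF2S3B and EIF5AL1, themselves members, were therefore not examined as possible copies of EIF2S3 and EIF5A.

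The first question was how initiation factor mRNAs changed with JG-98. Few did, and by little. In Empty, 2 of 50 members rose and none fell, which is 4% against 0.339% of all tested genes called in either direction (0.260% higher and 0.0791% lower). The members called were EIF4EBP1 and EIF2S2. In NeuT, 3 members rose (EIF5, EIF4EBP1 and EIF4B) and none fell, which is 6% against 3.01% of all tested genes called in either direction (2.01% higher and 1.01% lower). The median log2 change of the members was 0.03 in Empty and -0.01 in NeuT, beside -0.0033 and 0.00021 over all tested genes. None of the 50 changed as much as 2-fold, and 49 in Empty and all 50 in NeuT stayed within 1.3-fold. For reference, ATF4, the transcription factor whose translation increases when eIF2 alpha is phosphorylated, rose by 0.51 in Empty and by 1.34 in NeuT on the log2 scale (edgeR adjusted p = 0.0157 and 1.67e-06).

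EIF4EBP1 (chromosome 8, 38030534 to 38060365, GRCh38) was the member called in both derivatives. Its level in Empty was 153 and 146 CPM without the drug and 183 and 180 CPM with it. In NeuT it was 188 and 187 CPM without and 231 and 224 CPM with the drug. In either derivative both treated libraries lay above both untreated ones, and untreated NeuT was already above treated Empty. The rise was 0.28 on the log2 scale in Empty (SE 0.053, edgeR adjusted p = 0.0258) and 0.28 in NeuT (SE 0.053, edgeR adjusted p = 0.00723), about 1.21-fold in each. The other eIF4E-binding proteins were not called: EIF4EBP2 had a log2 change of -0.08 in Empty and -0.13 in NeuT, and EIF4EBP3 had 0.27 and 0.06.

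EIF2S2 (chromosome 20, 34088309 to 34112243) encodes eIF2 beta, the subunit that contacts eIF5 and eIF2B. It was at 183 and 187 CPM in untreated Empty and at 236 and 216 CPM in treated Empty. In NeuT it was at 170 and 178 CPM without the drug and at 194 and 204 CPM with it. The groups did not overlap in either derivative, but only the rise in Empty was called (log2 change 0.29, SE 0.058, edgeR adjusted p = 0.0388). The log2 change in NeuT was 0.19 (SE 0.058, edgeR adjusted p = 0.0822), and the difference between derivatives was not called (adjusted p = 0.799). The partner subunits did not pass the test. EIF2S1, whose product carries the phosphorylated serine of eIF2 alpha, had log2 changes of -0.01 in Empty and -0.11 in NeuT, and EIF2S3 had 0.04 and 0.06. The approximate 95% interval of EIF2S1 ran from -0.12 to 0.09 in Empty and from -0.22 to -0.01 in NeuT.

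EIF5 (chromosome 14, 103333544 to 103345025) encodes the protein that stimulates GTP hydrolysis by eIF2 at the start codon. In NeuT it rose from 366 and 363 CPM to 429.5 and 468 CPM (log2 change 0.30, SE 0.054, edgeR adjusted p = 0.00473). In Empty it was at 434 and 429 CPM without and 478 and 460 CPM with the drug, a log2 change of 0.12 that was not called (edgeR adjusted p = 0.466). Untreated NeuT was thus the low group, and treated NeuT lay within the range of the Empty libraries.

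EIF4B (chromosome 12, 53006158 to 53042209), a cofactor that stimulates the helicase eIF4A, was likewise lowest in untreated NeuT. It was at 218 and 221 CPM in untreated NeuT and at 251 and 263 CPM in treated NeuT, and the 4 Empty libraries lay from 249 to 262 CPM. The rise in NeuT was 0.23 on the log2 scale (SE 0.052, edgeR adjusted p = 0.0216), and the log2 change in Empty was 0.04.

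EIF1, which keeps the scanning ribosome from starting at the wrong codon, missed the threshold in NeuT. It was at 356 and 362 CPM without and 412 and 440 CPM with the drug (log2 change 0.25, edgeR adjusted p = 0.0552). In Empty it was at 368 and 363 CPM without and at 439 and 373 CPM with the drug. The Empty treated libraries therefore differed from each other by more than the lower of them differed from the untreated ones. EIF4G1, the main scaffold of eIF4F and the member nearest to a call among those with lower levels in Empty, was at 1128 and 1132 CPM without and 945 and 1005 CPM with the drug. Its log2 change was -0.21 in Empty (edgeR adjusted p = 0.151) and -0.06 in NeuT.

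**Figure D2:**
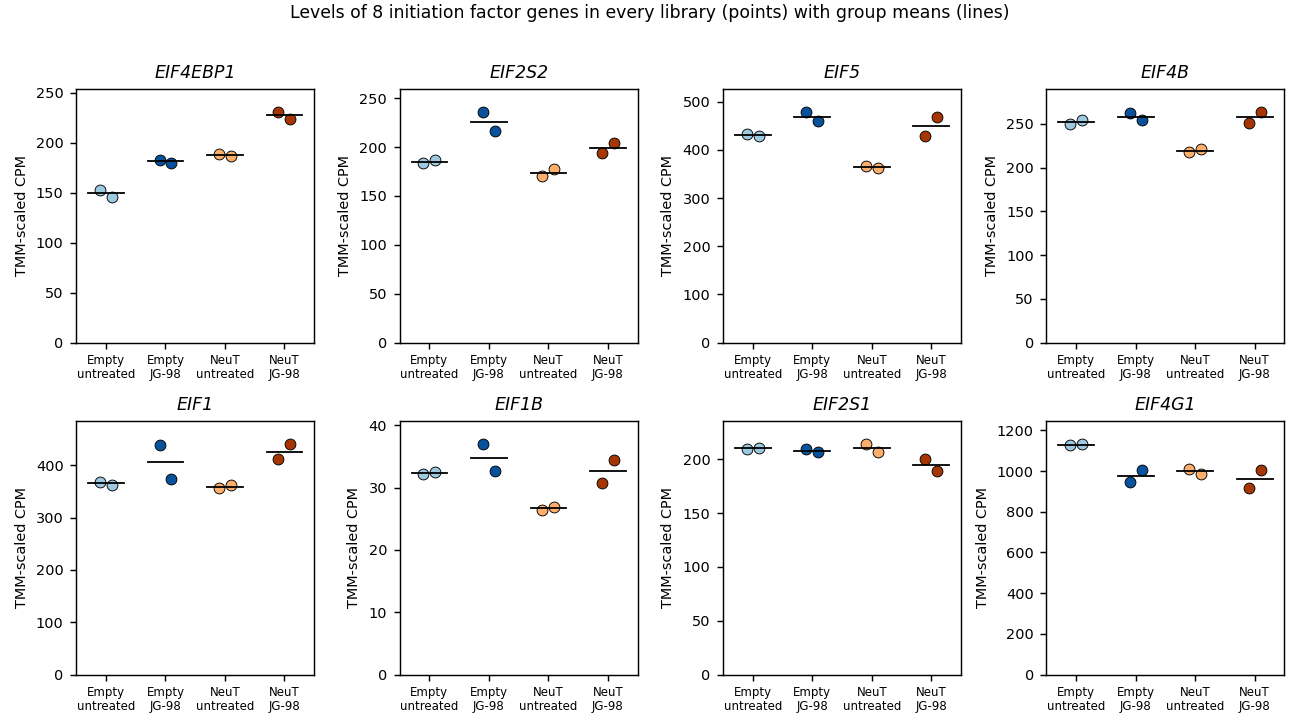
TMM-scaled CPM of 8 members in every library (points, 2 per group) with group means (lines); each vertical axis starts at 0. The upper row holds the 4 genes called with JG-98 in at least 1 derivative, and the lower row holds EIF1, EIF1B, EIF2S1 and EIF4G1, none of which was called with JG-98 in either derivative taken alone.

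By role, none of the 5 eIF2B genes was called. Their log2 changes lay between -0.11 and 0.01 in Empty and between -0.16 and -0.01 in NeuT. The approximate 95% interval of EIF2B5, the catalytic subunit, ran from -0.23 to 0.02 in Empty and from -0.13 to 0.12 in NeuT. None of the 14 eIF3 genes was called in either derivative, with medians of 0.06 in Empty and -0.02 in NeuT, and none of the 4 genes of the eIF5A and eIF6 group was. Of the 11 genes of eIF4F and the helicases, only EIF4B in NeuT was called. EIF4E had log2 changes of -0.01 in Empty and -0.17 in NeuT, EIF4A2 of 0.08 and 0.13, and EIF4G2 of -0.04 and 0.09. EIF2A and EIF2D, proteins that can bring initiator tRNA without eIF2, had 0.07 and 0.08 in Empty and -0.01 and 0.04 in NeuT.

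**Figure D3:**
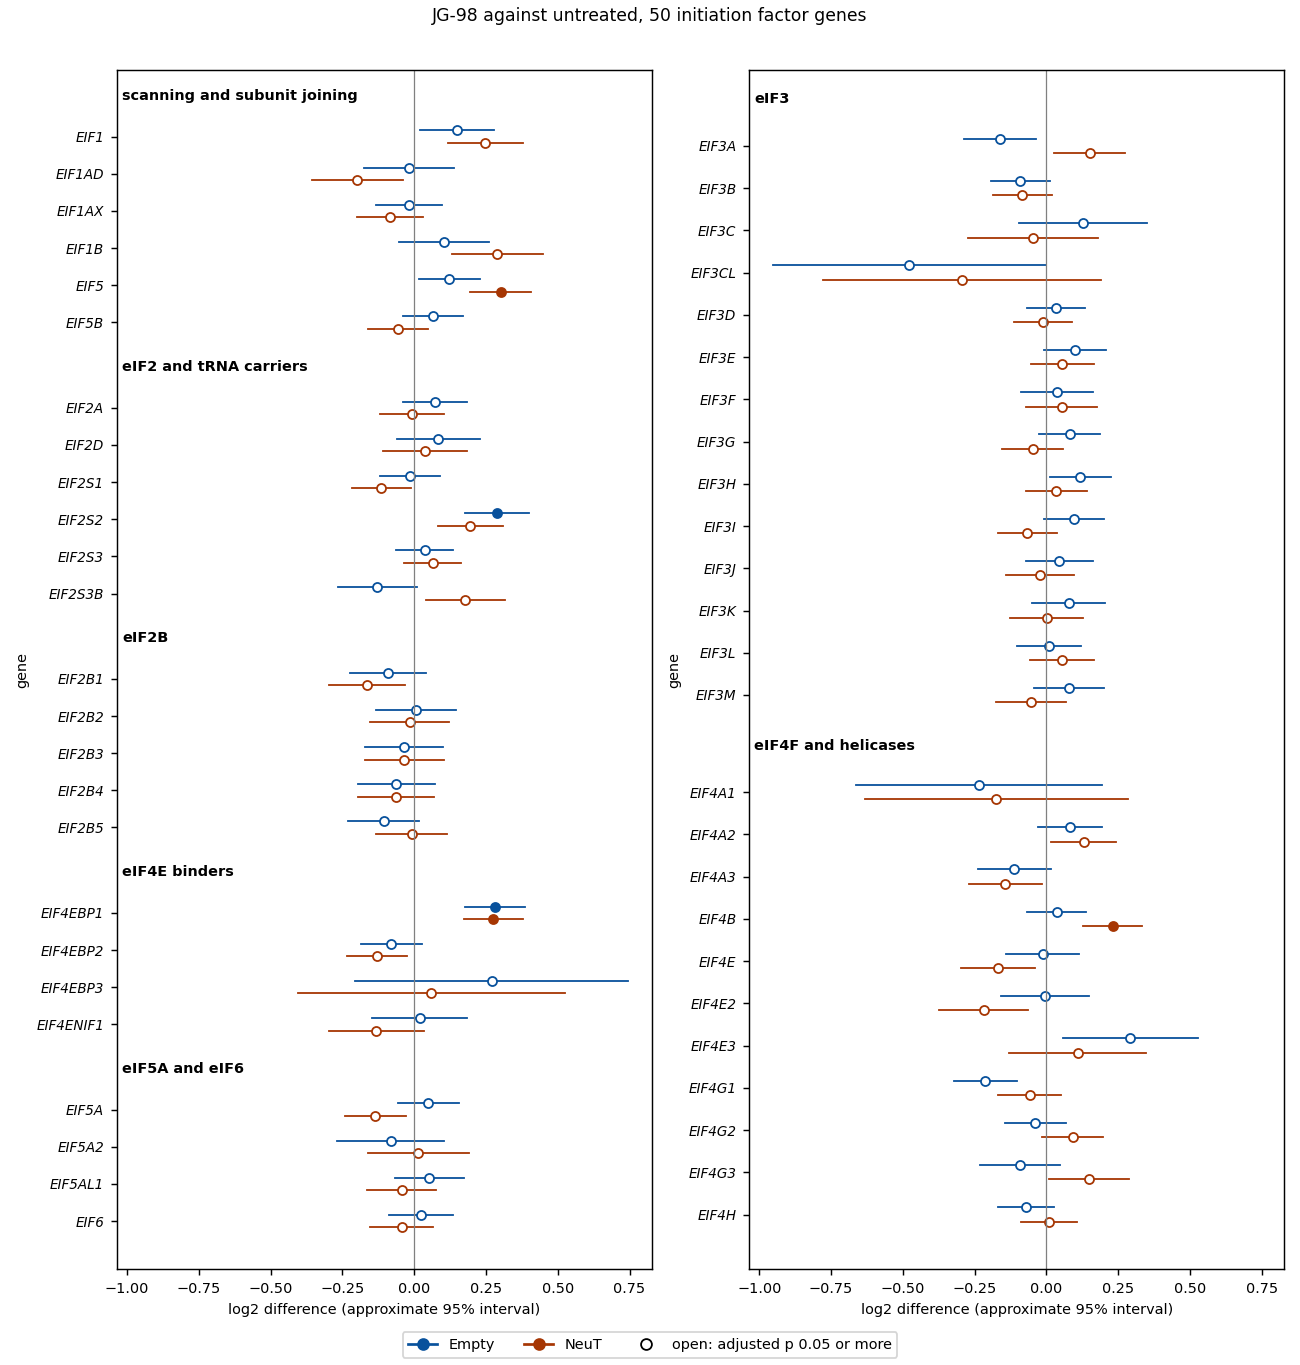
Log2 change with JG-98 of all 50 members in Empty and in NeuT, grouped by role, with approximate 95% intervals. Filled points are the genes called, which are EIF4EBP1 and EIF2S2 in Empty and EIF5, EIF4EBP1 and EIF4B in NeuT; all other points are open.

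The calls rested on few libraries. Every one of the called changes kept its sign in each fit with 1 library left out, with adjusted p-values that ranged widely. For EIF4EBP1 in Empty they ran from 0.000255 to 0.560, and leaving out either library of untreated Empty (0.198 and 0.560), treated Empty (0.328 and 0.101) or untreated NeuT (0.0882 and 0.0876) ended the call. EIF2S2 in Empty was lost without either library of untreated Empty (0.392 and 0.420), without treated Empty replicate 1 (0.570) and without either library of untreated NeuT (0.115 and 0.114). In NeuT, the calls of EIF5, EIF4EBP1 and EIF4B were all lost without untreated replicate 1 or without untreated replicate 2. Fewer of all tested genes were then called as well. The log2 changes in these fits were 0.30 and 0.29 for EIF5, 0.28 and 0.26 for EIF4EBP1, and 0.22 and 0.23 for EIF4B. EIF4B was also lost without untreated Empty replicate 1 or 2 (0.0607 and 0.0606) or without treated NeuT replicate 2 (0.0553). Without untreated Empty replicate 2, when fewer of all tested genes were called in Empty as well, EIF3CL had a log2 change of -0.82 there. Without either library of treated NeuT, 4 members were called in Empty, where EIF4G1 and EIF3A were then called lower, while the share of all genes called there was 2.23% and 2.16%. Without treated NeuT replicate 1, 13 members were called in NeuT, of which 8 were higher and 5 lower, while the calls over all genes also went up, from 533 of 17693 to 2133 of 18667 (11.4%). The replicates of treated NeuT differed most from each other, with a chi-square statistic of 22.2 per gene against 4.54 to 8.24 in the other groups.

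Fitting only the 4 libraries of a derivative also moved the result. In NeuT no member was then called (edgeR adjusted p of 0.0506 for EIF5, 0.0530 for EIF4EBP1 and 0.109 for EIF4B). In Empty EIF4EBP1 and EIF2S2 stayed called and EIF4G1 was called lower, with a log2 change of -0.21 and edgeR adjusted p = 0.0294. Over all genes, these fits called 1.11% in NeuT, against 3.01% with all 8 libraries, and 1.22% in Empty, against 0.339%. The authors' deposited tables of the same comparisons listed 1 member with an adjusted p-value under 0.05 in Empty (EIF4EBP1) and 3 in NeuT (EIF4B, EIF4EBP1 and EIF5), and all were also called here. EIF2S2 in Empty had an adjusted p-value of 0.0641 in the authors' deposited table.

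To use all 8 libraries for the drug effect, its average over both derivatives was tested as well; this contrast was added after the values had been seen and is no independent support. It called 4 members higher and none lower, which is 8% against 3.97% of all tested genes called in either direction (2.39% higher and 1.58% lower). They were EIF4EBP1 with a log2 change of 0.28 (edgeR adjusted p = 0.000296), EIF2S2 with 0.24 (0.00225), EIF5 with 0.21 (0.00395) and EIF1 with 0.20 (0.0234). EIF4EBP1 and EIF2S2 were called in each of the 8 fits with 1 library left out. EIF5 was called in 7 of these fits, with an adjusted p of up to 0.0527, and EIF1 in 3, with an adjusted p of up to 0.135. The count of members called was 2 without untreated NeuT replicate 2, 8 without treated NeuT replicate 2 and 11 without treated NeuT replicate 1, while 1.39%, 5.02% and 10.4% of all genes were called in these fits. EIF4G1 was called lower as well with DESeq2 (log2 change -0.14, adjusted p = 0.0182), without a filter on low counts (edgeR adjusted p = 0.0158), with the replicate block (0.0430), and without treated NeuT replicate 1 (0.0420) or replicate 2 (0.0012). EIF1, EIF2S2 and EIF5 encode proteins that meet in the preinitiation complex around the start codon, and EIF4EBP1 encodes a repressor of eIF4F assembly.

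Whether the response to JG-98 differed between NeuT and Empty was tested by the interaction of line and drug. No member was called in edgeR, against 0.00565% of all tested genes. DESeq2 and limma-voom also called 0 members, and over all genes 25 and 1. In edgeR 7 of the 50 members had an unadjusted p under 0.05, against 7.79% of all tested genes. Differences of log2 changes ran from -0.21 to 0.31 among the members. That of EIF4EBP1 was -0.01, with an approximate 95% interval from -0.15 to 0.14. The interval for EIF5 was 0.03 to 0.33 and that for EIF4B 0.05 to 0.34, with edgeR adjusted p-values of 0.599 and 0.559. Without treated NeuT replicate 1, 5 members were called (EIF3A, EIF4G3 and EIF5 with larger changes in NeuT, EIF4E2 and EIF5A with smaller ones), which are named here after their values were seen. Over all genes, 777 of 18667 (4.16%) were called in that fit, against 1 with all libraries. Values of EIF3A, the largest of these at 0.41, rested on a single treated NeuT library with 428 CPM, while the library left out had 370.5.

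The difference between the derivatives was larger than that with the drug. Without treatment, 20 of 50 members differed between NeuT and Empty, 15 lower and 5 higher in NeuT. This is 40% against 42.0% of all tested genes, so the share of members that differed was close to that of all genes. Over all tested genes 21.2% were called higher and 20.8% lower, beside 5 and 15 of the 50 members, and the median log2 difference was -0.09 against -0.02. With JG-98 in both arms, 20 members differed again, 15 lower and 5 higher, or 40% against 41.7% of all tested genes (21.7% higher and 20.0% lower), with a median of -0.09 against -0.0011. The comparisons without and with the drug use different libraries, and 13 of the 20 genes called in each were called in both, all in the same direction. The overlap over all tested genes was not counted, so that of the members cannot be set against it.

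This split depended on the scaling of the libraries. With total counts in place of TMM, the median of all genes moved from -0.02 to -0.08 without the drug and from -0.0011 to -0.08 with it. The calls over all genes then went from 3748 higher of 7423 to 3087 of 7592 without the drug, and from 3839 of 7380 to 3106 of 7571 with it. Among the members, 28 were then called without the drug (4 higher, 24 lower) and 32 with it (4 higher, 28 lower). The directions of single genes are those under TMM; no call among the genes followed through the alternatives reversed.

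The members lower in NeuT in both comparisons were EIF1AX, EIF2A, EIF2B5, EIF2D, EIF3J, EIF4A1, EIF4A2, EIF4A3 and EIF4G2. All 3 EIF4A genes, which encode RNA helicases, were thus lower, and they were so with RLE size factors and with total counts as well. EIF4A2 was at 138 and 130 CPM in untreated Empty and 102 and 105 CPM in untreated NeuT, and at 145 and 139 against 116 and 111 CPM with the drug. The groups were apart in both comparisons, with log2 differences of -0.37 and -0.32 (SE 0.057 in each, edgeR adjusted p = 5.5e-05 and 0.000209). EIF4A3, the paralog that sits in the exon junction complex rather than in eIF4F, was at 121 and 116 against 93.3 and 93.6 CPM untreated, and at 109 and 110 against 90.6 and 78.7 CPM treated. Its log2 differences were -0.34 and -0.37. EIF4A1 had the largest differences, -0.74 and -0.68, at levels of only 1.13 to 2.61 CPM and with the shared exons described above.

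EIF1AX encodes eIF1A, which works with eIF1 in scanning. It was at 181 CPM in both untreated Empty libraries and at 140 and 148 CPM in untreated NeuT (log2 difference -0.33, SE 0.059, edgeR adjusted p = 0.000233). With the drug it was at 186 and 171 against 140 and 132 CPM (-0.39). EIF1AXP1, a processed copy of this gene, held 40.3% as many counts, as given above. EIF2A and EIF2D, the alternative tRNA carriers, were lower by similar amounts, -0.24 and -0.32 for EIF2A and -0.26 and -0.31 for EIF2D, without and with the drug.

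EIF4G2 was the most abundant member in CPM, at 1606 and 1584 in untreated Empty against 1355 and 1274 in untreated NeuT. Its log2 difference was -0.28 (edgeR adjusted p = 0.000449), and with the drug -0.15 (0.0340). The second call was kept in only 1 of the 8 fits with a library left out, with an adjusted p of up to 0.181. EIF2B5 differed by -0.29 and -0.19. It was the single eIF2B gene called: the log2 differences of EIF2B1, EIF2B2, EIF2B3 and EIF2B4 lay between -0.09 and 0.08 in the comparisons without and with the drug. EIF2S1 differed by 0.00 and -0.10 and EIF2S3 by -0.12 and -0.10, and neither was called. EIF2S2 differed by -0.09 without the drug and was called with it at -0.18.

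Higher in NeuT in both comparisons were EIF5A2, EIF6, EIF4EBP1 and EIF3G. EIF5A2, a paralog of EIF5A with a narrower range of expressing tissues, was at 11.4 and 10.7 CPM in untreated Empty and 16.6 and 15.3 CPM in untreated NeuT. With the drug it was at 10.6 and 10.3 against 15.9 and 16.4 CPM. The groups were well apart, with log2 differences of 0.53 (SE 0.092, edgeR adjusted p = 0.000168) and 0.63 (SE 0.094, edgeR adjusted p = 3.7e-05). EIF5A, the abundant paralog, was at 857 and 859 against 883 and 927 CPM untreated, and at 886 and 890 against 860 and 787 CPM treated. Its log2 differences of 0.08 and -0.11 were not called.

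EIF6, which binds the large ribosomal subunit and keeps it from joining the small one too early, was at 158 and 145 CPM in untreated Empty and 202 and 197 CPM in untreated NeuT. Its log2 differences were 0.39 without and 0.33 with the drug (edgeR adjusted p = 2.4e-05 and 0.000157). In the annotation, 17.4% of its exonic bases are shared with another gene model. EIF4EBP1 differed by 0.33 in each comparison (edgeR adjusted p = 7.1e-05 and 8.1e-05), the values by library having been given above. EIF3G, an RNA-binding subunit of eIF3, differed by 0.31 without and 0.18 with the drug.

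**Figure D4:**
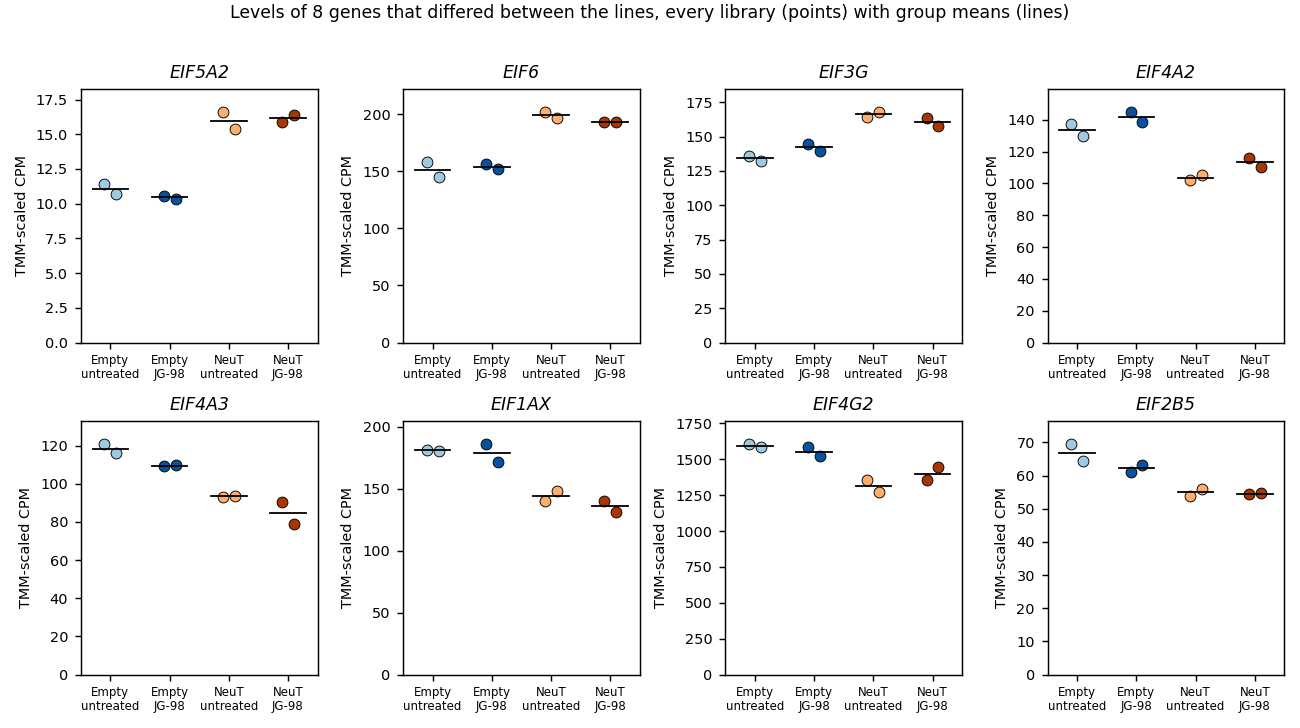
TMM-scaled CPM of 8 members called in both line comparisons, in every library (points, 2 per group) with group means (lines); each vertical axis starts at 0. EIF5A2, EIF6 and EIF3G were higher in all 4 NeuT libraries, and EIF4A2, EIF4A3, EIF1AX, EIF4G2 and EIF2B5 lower in all 4.

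The eIF3 genes did not move as a block. Of 14, 2 were higher and 2 lower without the drug (EIF3G and EIF3H higher, EIF3A and EIF3J lower), and 1 was higher and 3 lower with it (EIF3G higher, EIF3C, EIF3J and EIF3K lower). EIF3A, the largest subunit, was at 449 and 448 CPM in untreated Empty and 364 and 355 CPM in untreated NeuT (log2 difference -0.32, edgeR adjusted p = 0.000566). With the drug it was at 415 and 388 against 370.5 and 428 CPM, and the groups overlapped. Other members called in the untreated comparison alone were EIF1B, EIF2S3B, EIF4B, EIF4G1 and EIF5, all lower in NeuT. Those called with the drug alone were EIF1AD, EIF2S2, EIF4E and EIF4E3, lower in NeuT, and EIF4G3, higher in NeuT at 0.34 (edgeR adjusted p = 0.001). EIF4E and EIF4G3 were called in all of the 18 fits, whereas EIF4E3 was called in 7, with an adjusted p of up to 0.402 with a library left out. The change of the difference with the drug is the interaction, in which no member was called.

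**Figure D5:**
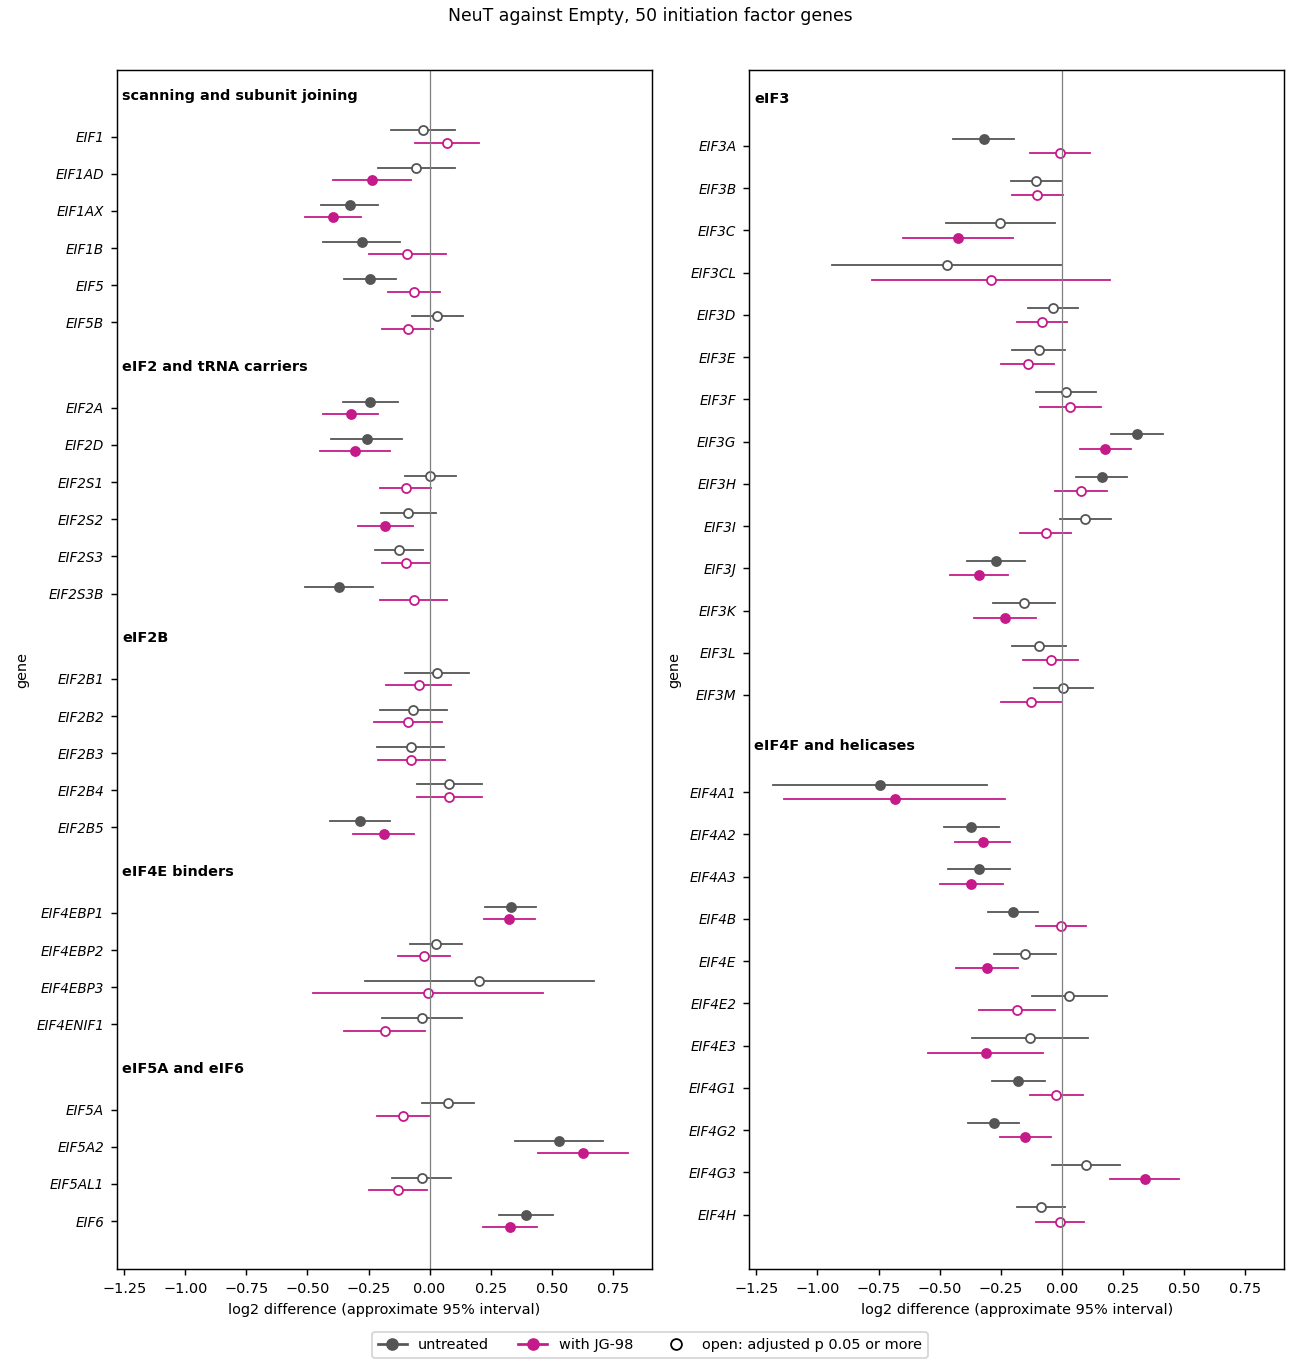
Log2 difference between NeuT and Empty of all 50 members, without and with JG-98, grouped by role, with approximate 95% intervals. Filled points mark the 20 genes called in each comparison, 13 of them in both, with EIF5A2 farthest to the right and EIF4A1 farthest to the left in each.

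Over the 17 alternative fits and the reported one, 12 of the 20 calls in untreated cells and 11 of the 20 in treated cells were made every time. EIF1AX, EIF4A2, EIF4A3, EIF4EBP1, EIF5A2 and EIF6 were called every time in both comparisons. How many calls over all tested genes were made every time was not counted. The number of members called ranged from 13 (without untreated NeuT replicate 2) to 23 for untreated cells and from 15 (without treated Empty replicate 2) to 21 for treated cells when 1 library was left out, while the share of all genes called ranged from 29.3% to 44.0% and from 31.9% to 39.7%.

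The derivatives also differed in some of the cell type markers. All 10 basal epithelial markers had at least 10 counts in every library, and their summed level was 27730 and 27082 CPM in Empty without and with the drug, and 37372 and 36375 CPM in NeuT. The summed level of 5 fibroblast markers was 9.04 and 9.11 CPM in untreated and treated Empty and 78.9 and 75.6 CPM in NeuT, of which DCN alone made 72.6 and 70.0 CPM in NeuT; none of the other fibroblast markers tested was called between the derivatives. The 3 leukocyte markers summed to at most 0.0740 CPM and the 3 endothelial markers to 8.29 to 15.1 CPM. Of these lists, 3 fibroblast, 0 leukocyte and 1 endothelial marker reached 10 counts in every library, and no marker was at 0 in all libraries. The part of these differences in the line comparisons was not tested. In bulk RNA, fewer cells of a type and less RNA per cell cannot be told apart.

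Other genes of translation control were read from 4 lists without EIF factors. With JG-98 in Empty, 0 of 13 elongation and release genes, 0 of 29 initiation partners and regulators, 0 of 5 eIF2 alpha phosphatase genes and 0 of 4 eIF2 alpha kinase genes were called, where 0.339% of all tested genes were. In NeuT, where 3.01% of all tested genes were called, EEF2K, the kinase that inhibits elongation factor eEF2, fell by 0.29 on the log2 scale (edgeR adjusted p = 0.0197), from 65.0 and 60.8 CPM to 50.5 and 52.1 CPM. In Empty EEF2K was at 48.3 and 50.4 CPM without and 46.7 and 44.2 CPM with the drug (log2 change -0.12, edgeR adjusted p = 0.586), and the difference between the derivatives was not called (edgeR adjusted p = 0.674). SESN2, an inhibitor of mTORC1 signalling, rose by 1.42 (edgeR adjusted p = 0.0274), from 38.2 and 39.4 CPM to 82.7 and 125 CPM. In Empty SESN2 went from 16.5 and 15.6 CPM to 35.1 and 29.8 CPM, and the groups did not overlap there either, but the log2 change of 1.01 was not called (edgeR adjusted p = 0.232). The difference between the derivatives in this change was 0.41 (edgeR adjusted p = 0.773). No other gene of the lists was called in NeuT. The average effect over both derivatives, for which 3.97% of all tested genes were called, also called EEF2K lower and SESN2 higher, and in addition PPP1R15A, a regulatory subunit of the eIF2 alpha phosphatase, higher (log2 change 0.90, edgeR adjusted p = 0.0325). PPP1R15A was at 27.1 and 26.5 CPM without and 48.3 and 42.1 CPM with the drug in Empty, and at 49.5 and 47.5 CPM without and 79.9 and 121 CPM with it in NeuT.

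Between the derivatives without the drug, when 42.0% of all tested genes were called (21.2% higher and 20.8% lower), 2 of the 13 elongation and release genes were higher and 3 lower in NeuT. Of the 29 initiation partners 7 were higher and 9 lower, of the 5 phosphatase genes 1 was higher and 3 lower, and 1 of the 4 kinase genes was lower. The largest of these differences were in DHPS at -1.46, an enzyme that modifies eIF5A and whose level was at most 1.14 CPM, SESN2 at 1.27, the phosphatase subunit PPP1R15A at 0.86, PAIP2B at -0.58 and the eIF4E kinase MKNK2 at 0.54. With the drug, against 41.7% of all tested genes, 1 elongation and release gene was higher and 3 lower, 9 partners were higher and 6 lower, 1 phosphatase gene was higher and 3 lower, and 1 kinase gene was higher and 2 lower.

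Promoters are shown for the members that were called between the derivatives and whose start-site window holds either of a pair of motifs. One is the E-box CACGTG, bound by factors of the MYC and MITF families, and the other the composite C/EBP-ATF element TGATGNAAN. Windows of 300 bases, from 250 before to 50 after each RefSeq transcription start (GRCh38.p14), were found for 42 of the 50 members. The palindrome CACGTG, which reads the same on both strands, occurred in 11 of the 42 members (26.2%), against 11.9% of the 11651 tested genes that had a window. Counted by window instead of by gene, it was in 11 of the 58 windows of the members, against 7.26% of all 35116 windows. TGATGNAAN, searched on both strands, occurred in 1 member, EIF4E3 (2.38%), against 2.92% of tested genes. By window it was in 1 of the 58 windows of the members, against 3.61% of all windows. No match of one motif overlapped one of the other. Up to 30 bases around the match nearest the start are printed 5′ to 3′ on the strand of the gene, with the matched letters in capitals; bases after the start were searched and are not printed.
EIF1B, chr3:40309641-40309670 (+ strand): gcgcgggacggtCACGTGggaggggccgcg
EIF3K, chr19:38619073-38619102 (+ strand): cgaggaagaagtCACGTGgcagccggaaag
EIF4A3, chr17:80147232-80147261 (- strand): ccagttccctttCACGTGacgaagagtgcc
EIF4B, chr12:53006422-53006451 (+ strand): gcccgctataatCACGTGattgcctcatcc
EIF4E, chr4:98929188-98929217 (- strand): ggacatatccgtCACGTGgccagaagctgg
EIF4G1, chr3:184314527-184314556 (+ strand): ccctgcgccggtCACGTGggggcgccggct
EIF5A2, chr3:170908782-170908811 (- strand): cagggcgctcttCACGTGactgggcggagc
EIF4E3, chr3:71729119-71729143 (- strand): ttgccatggtgaTGATGAAAGttgg

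The other members with CACGTG were EIF2B3, EIF3F, EIF4EBP3 and EIF4H, none of which was called in any comparison. The printed stretches of EIF4B, EIF4E, EIF4E3 and EIF4G1 lie inside the span of the gene in the count table, which for EIF4E3 runs from 71675414 to 71754773. The RefSeq starts used for these genes are thus not the outermost annotated ones. A match is a description of letters, and binding was not measured.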

How the data were processed

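RNA of 8 libraries was sequenced. The authors deposited raw counts per gene for all libraries, in the layout of featureCounts per the file headers, and 1 table per derivative with their own log2 fold change, mean log2 expression, test score, p-value and adjusted p-value, per the file headers. The submitters' processing notes name Trim Galore 0.5.0, FastQC 0.11.7, HISAT2 2.1.0, SAMtools 1.9, featureCounts 1.6.3, limma and the GRCh38 build, without giving their roles. The use of strand is not given in the sources used here, so reads of antisense neighbours cannot be told apart.

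Samples were grouped by their titles, and 0 columns matched no sample. Symbols were found for 60261 of 60617 identifiers and gene types (GENCODE 29) for 58542. Coordinates are 1-based, from the count table. The deposited counts went unchanged into edgeR 4.0.16 (R 4.3.3), with filterByExpr (minimum count 10, minimum total 15), TMM, and 1 robust quasi-likelihood fit with a coefficient per group over all 8 libraries. Standard errors are the log2 change divided by the square root of F. With 2 libraries against 2, an exact permutation test of 1 gene cannot reach 0.05. Replicates differed by more than sampling noise and were counted separately. The scripts were tested on simulated counts. Alternatives were RLE size factors, total counts, other filters, DESeq2 1.42.0, limma-voom (limma 3.58.1), no robust estimation, a replicate block, a fit of 4 libraries, and leaving out each library.

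The members, lists, motifs and tests were chosen with earlier results of these data known. The genes named are up to 15 called members per comparison by size, a panel of 22 members whatever their values, the members highest and lowest per length, and up to 5 called genes of the other lists per comparison. ATF4 is given for reference. Members named beyond this, for completeness of a role or a count, were chosen after their values were seen.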

Additional observations from a re-analysis of the deposited data

Results flagged for a closer look

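In 5 members, both treated libraries of one derivative lay above both untreated ones while in the other derivative both lay below. This is 10% of the members, beside 1019 of all 17693 tested genes (5.76%). The difference between the JG-98 effects (NeuT minus Empty, log2) was 0.31 for EIF2S3B, an EIF2S3 paralog, and 0.31 for EIF3A, which were lower with the drug in both Empty libraries and higher in both NeuT libraries. It was -0.13 for EIF3G, -0.16 for EIF3I and -0.19 for EIF5A, which went the other way. None of these differences was called by the interaction test in edgeR, with adjusted p-values of 0.509, 0.490, 0.711, 0.632 and 0.595 in that order.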

How the results depend on the processing

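The number of members called was 2 for JG-98 in Empty, 3 in NeuT, 0 for the interaction, 20 for each line comparison and 4 for the average drug effect. With 1 library left out it ranged from 0 to 4, 0 to 13, 0 to 5, 13 to 23 (untreated), 15 to 21 (treated) and 2 to 11 in that order, beside 0.0483% to 2.23%, 0.706% to 11.4%, 0.00536% to 4.16%, 29.3% to 44.0%, 31.9% to 39.7% and 1.39% to 10.4% of all genes; the group left with 1 library was then assumed to vary like the others. Without a filter on low counts, 7 members were called in NeuT (3.13% of all genes), and 1, EIF3A, for the interaction (0.432%, against 0.00565% with the filter). JG-98 in Empty gave 1 member with limma-voom and 1 without robust estimation (EIF4EBP1 in both; 0.249% and 0.333% of all genes), since EIF2S2 then had adjusted p = 0.0640 and 0.0606. The fit of only 4 libraries gave 0 members for JG-98 in NeuT (1.11% of all genes), and total counts gave 32 for the treated lines (42.8%). The cause of these shifts was not tested. No called change reversed. Over the genes named, calls made were kept 682 times and lost 79 times, and genes not called became called 40 times.

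Whether equal replicate numbers mark paired samples is not given by the labels. The correlation of replicate differences was 0.244 between treated Empty and treated NeuT, and from -0.101 to 0.0640 between the other pairs of groups. With the replicate block, 2 members were called for JG-98 in Empty, 4 in NeuT, where EIF1 passed (adjusted p = 0.0485), 0 for the interaction, 21 and 22 between the lines and 6 for the average effect, of which EIF4G1 was lower. The shares of all genes called were then 0.373%, 3.35%, 0.00565%, 42.4%, 42.1% and 4.41%. Low counts limit EIF4A1, EIF4E3 and EIF4EBP3, the most weakly detected members.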
